A study of Mus musculus with 4 samples.

Results

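Disease-associated microglia genes are the genes that microglia switch on around amyloid plaques, dying neurons and damaged myelin. The 10 members described here, Apoe, Trem2, Tyrobp, Cst7, Lpl, Spp1, Clec7a, Itgax, Axl and Cd9, were taken by their symbols from the 55487 genes of the count matrices, and each symbol matched 1 gene. Their RNA was measured by droplet single-cell RNA sequencing of mouse brain, in which each unique molecular identifier (UMI) stands for 1 captured RNA molecule. They were picked as a list of symbols, proposed with earlier results of these data known. They were followed through the cell classes of 4 libraries, with microglia and border macrophages (the macrophages of meninges and perivascular spaces) kept apart.

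Young and old mice were each represented by a WT Cre library and an EC-K4KO library, making 4 libraries. WT Cre mice carry the Cre driver of the endothelial cadherin gene Cdh5 alone. EC-K4KO mice carry this driver together with floxed Klf4, so that Klf4 is meant to be lost from endothelial cells and not from microglia. The study's mice were of the C57BL/6J background, and both sexes were used in its experiments, without the sex behind each library being given. The study text gives tamoxifen, which activates the Cre, to control and knockout mice alike, whereas the sample labels name no drug treatment. The labels give the age of each library only as young or old, the number of mice per library is not given in the sources used here, and the extraction protocol in the labels names a sort or marker-based purification of brain endothelial cells. Shares of cells given here are therefore not shares of brain cells. In what follows, sets of 4 values stand in the order young WT Cre, library labelled young EC-K4KO, old WT Cre, library labelled old EC-K4KO.

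Klf4 did not follow the labels. In endothelial-like cells it lay at 1711, 3285, 2104 and 3295 CPM (UMIs of the gene per 1000000 UMIs of the class), higher in both libraries labelled EC-K4KO, so these are called libraries labelled EC-K4KO throughout. Whether the labels are exchanged was not tested, and each direction given below for the genotype label holds only for the labels as they stand. The counts do not say where on Klf4 a molecule lies, so the floxed part was not checked. The 26422 deposited barcodes had median depths of 3810.5 to 7811.5 UMIs by library, 32 to 70 of each library also occurred in another, and 20737 cells were kept. Microglia-like cells numbered 335, 583, 1305 and 764, with median depths of 5545, 5621, 5384 and 4877 UMIs. Border macrophage-like cells numbered 43, 76, 49 and 27. The 9 microglia markers summed to 20469, 22207, 12150 and 11750 CPM in microglia-like cells with none at 0, and the 8 border macrophage markers to 5.29, 16.3, 18.7 and 46.0 CPM there (5, 1, 1 and 3 of them at 0), against 9718 to 12247 CPM in border macrophage-like cells. Of other types, the 8 endothelial markers summed to 107 to 423 CPM, the 7 astrocyte markers to 179.7 to 228 CPM and the 7 neutrophil markers to 126 to 251 CPM in microglia-like cells, with 2, 3, 2 and 1 of the 7 neutrophil markers and none of the endothelial and astrocyte markers at 0, and their part in the results was not tested. Each group holds 1 library, so all intervals below are 95% intervals of counting error alone.

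Microglia are the resident macrophages of the brain. TREM2 is their surface receptor for lipids and lipoproteins, TYROBP (DAP12) is the adaptor that passes its signal on, and apolipoprotein E is one of its ligands. In disease models the shift into the disease-associated state runs in part through this receptor: homeostatic genes such as P2ry12 and Cx3cr1 fall while genes of lipid handling, lysosomes and phagocytosis rise.

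All 10 identifiers matched the GRCm38 gene annotation (GENCODE vM21), in which 9 members are protein coding and Clec7a is listed as a polymorphic pseudogene. The genes of the lipid and receptor axis are Apoe (chr7:19696109-19699188, minus strand), Trem2 (chr17:48346401-48354147, plus strand), Tyrobp (chr7:30413760-30417585, plus strand) and Lpl (chr8:68880491-68907448, plus strand). The phagocytic and surface receptors are Clec7a (chr6:129461591-129472779, minus strand), Itgax (chr7:128129547-128150657, plus strand), Axl (chr7:25757273-25788705, minus strand) and Cd9 (chr6:125460266-125494791, minus strand). The secreted or lysosomal members are Spp1 (chr5:104435118-104441050, plus strand) and Cst7 (chr2:150570415-150578944, plus strand). RefSeq promoter entries of the same build were found for 8 of the 10 members (12 entries, with none for Tyrobp and Lpl). The 250 bases before the start of transcription were searched on both strands for GAGGAA (the core bound by PU.1, a transcription factor of all myeloid cells), TGANTCA (AP-1), CACGTG (E-box) and the motif of interferon regulatory factors. Given here, 5′ to 3′ on the strand of the gene and with each match in capitals, are the promoters that held a match among the members that rose with age in microglia-like cells. The entry nearest the annotated start was taken.
Apoe, chr7:19699189-19699438, minus strand: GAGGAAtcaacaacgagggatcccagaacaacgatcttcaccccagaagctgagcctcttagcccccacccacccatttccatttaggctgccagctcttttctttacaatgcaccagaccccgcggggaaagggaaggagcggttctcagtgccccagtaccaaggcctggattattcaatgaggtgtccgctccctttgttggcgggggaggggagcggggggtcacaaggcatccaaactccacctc
Spp1, chr5:104434861-104435110, plus strand: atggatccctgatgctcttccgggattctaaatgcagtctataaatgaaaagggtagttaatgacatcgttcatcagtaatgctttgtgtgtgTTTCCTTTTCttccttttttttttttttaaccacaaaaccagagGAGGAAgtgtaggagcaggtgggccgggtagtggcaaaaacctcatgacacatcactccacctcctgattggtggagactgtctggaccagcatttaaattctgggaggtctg
Clec7a, chr6:129472780-129473029, minus strand: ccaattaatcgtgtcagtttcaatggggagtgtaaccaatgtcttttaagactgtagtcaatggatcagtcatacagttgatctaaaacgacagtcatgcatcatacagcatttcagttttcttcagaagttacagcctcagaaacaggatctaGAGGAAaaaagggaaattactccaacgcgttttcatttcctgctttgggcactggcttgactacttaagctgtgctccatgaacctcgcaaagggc
Itgax, chr7:128129300-128129549, plus strand: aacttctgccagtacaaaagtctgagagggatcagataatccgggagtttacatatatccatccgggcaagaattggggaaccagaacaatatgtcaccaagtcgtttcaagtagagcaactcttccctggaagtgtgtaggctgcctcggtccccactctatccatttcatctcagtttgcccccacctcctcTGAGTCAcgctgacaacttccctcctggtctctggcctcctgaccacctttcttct
Axl, chr7:25788734-25788983, minus strand: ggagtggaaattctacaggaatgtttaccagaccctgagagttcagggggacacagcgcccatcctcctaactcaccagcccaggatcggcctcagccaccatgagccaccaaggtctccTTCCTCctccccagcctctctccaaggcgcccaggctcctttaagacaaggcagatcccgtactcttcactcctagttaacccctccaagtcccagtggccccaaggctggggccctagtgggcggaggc
The PU.1 core stood in 7 of the 12 member entries and in 23.3% of all 32851 promoter entries of this length. The AP-1 letters stood in 2 entries (Itgax and Trem2) against 6.75% of all, and the interferon regulatory factor motif in 1 (Spp1) against 2.98%. The E-box stood in 0 of the 12 entries and in 6.02% of all. The promoters of Cst7 and Cd9 held none of the 4 motifs. These matches describe the letters and were tied to no binding data.

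**Figure D1:**
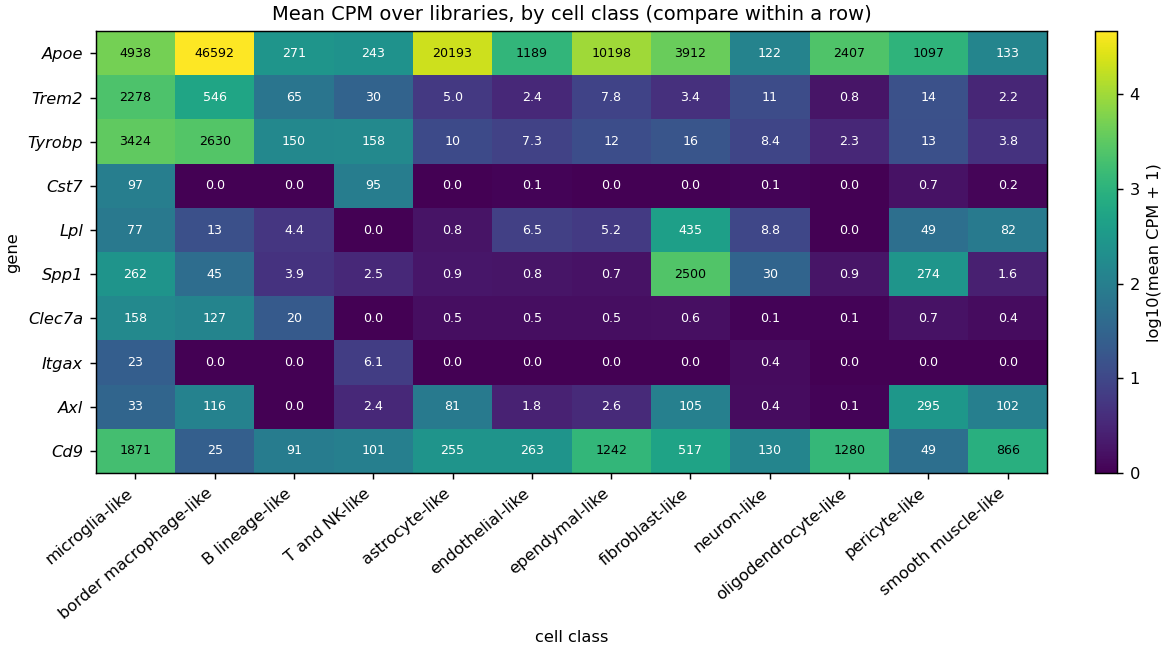
Mean level of each member (rows, CPM averaged over libraries) in 12 cell classes (columns), with the colour on a log10(mean CPM + 1) scale and the value printed in each field. Within a row, Trem2, Tyrobp, Cst7, Clec7a, Itgax and Cd9 are highest in microglia-like cells, while Apoe is highest in border macrophage-like, Lpl and Spp1 in fibroblast-like and Axl in pericyte-like cells.

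The 12 classes compared had at least 20 cells in at least 3 libraries, which left out neutrophil, monocyte, dendritic, choroid plexus and oligodendrocyte precursor-like cells among others. Within these 12, microglia-like cells had the highest mean level for 6 of the 10 members, and 4 members had another main class. The classes come from clusters of the same cells, so these levels are a description with no test. The receptor Trem2 ranged from 2133 to 2378 CPM over the libraries in microglia-like cells, above 484 to 664 CPM in border macrophage-like cells with no overlap. Its adaptor Tyrobp lay at 2991 to 4090 CPM in microglia-like cells and at 2354 to 2850 CPM in border macrophage-like cells. Both macrophage classes thus held both genes.

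Cst7, which encodes cystatin F, an inhibitor of lysosomal cathepsins, had 0 UMIs in border macrophage-like cells of all 4 libraries, which allows up to 11.5, 6.20, 10.6 and 20.4 CPM. In microglia-like cells it reached 21.0 to 184 CPM and overlapped T and NK-like cells (43.2 to 137 CPM). Itgax, the CD11c integrin chain, also had 0 UMIs in the border macrophage-like cells of each library, under the same limits, against 10.9 to 40.3 CPM in microglia-like cells. Clec7a, the fungal glucan receptor dectin-1, did not separate the 2 classes, at 31.6 to 362 CPM in microglia-like and 96.0 to 156 CPM in border macrophage-like cells. Cd9, a tetraspanin of the cell surface, lay at 1561 to 2075 CPM in microglia-like cells, above the next class, oligodendrocyte-like cells (1209 to 1401 CPM), and at only 7.68 to 40.8 CPM in border macrophage-like cells.

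Apoe had the reverse order. Border macrophage-like cells held 56158, 43203, 44162 and 42844 CPM and astrocyte-like cells 17218 to 22386 CPM, both without overlap with the 683 to 12990 CPM of microglia-like cells. Lpl, the lipase that frees fatty acids from lipoproteins, was highest in fibroblast-like cells (66.3 to 948 CPM), a range that overlapped those of smooth muscle-like cells (77.9 to 88.0 CPM) and microglia-like cells (33.8 to 117 CPM). Spp1, the secreted matrix protein osteopontin, was highest in fibroblast-like cells at 547 to 4926 CPM, a range that overlapped that of microglia-like cells (35.6 to 662 CPM). Axl, a receptor kinase that recognises dying cells through Gas6, was highest in pericyte-like cells (252 to 317 CPM, with no overlap with the next class). The fibroblast-like class held only 28 to 59 cells per library.

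The share of each member's UMIs that came from microglia-like cells followed from level and cell number. For Trem2 it was 93.5%, 93.1%, 96.9% and 97.4%. For Apoe it was 3.11%, 2.19%, 22.7% and 50.6%, so that most Apoe molecules of the young libraries came from other classes, astrocyte-like cells (37.6%) leading in young WT Cre and endothelial-like cells (37.0%) in the library labelled young EC-K4KO. For Spp1 it was 10.7%, 25.9%, 45.2% and 64.4%. Microglia-like cells were more numerous in the old libraries, and these shares move with that number.

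Most members were higher in the microglia-like cells of old mice. UMIs were summed over the microglia-like cells of each library, and an additive model of age and genotype label set the 2 young against the 2 old libraries across 11380 genes, with 1 residual degree of freedom. At an adjusted p under 0.05, 8 of the 10 members rose with age and 0 fell, in a background where 24.7% of all tested genes passed (14.9% higher, 9.72% lower). The median log2 change of the members was 1.53 and that of all tested genes -0.02. The members' median was 0.83 without the library labelled young EC-K4KO, 0.66 without that labelled old EC-K4KO and 0.35 in the Ccl3/Ccl4-high cluster of these cells alone, which is described further on. All 10 members passed the filter on low counts. Trem2 and Lpl did not pass the test. The old libraries also differed in scale: the median gene with a mean of at least 20 CPM had a log2 ratio of CPM of -0.22 (old over young WT Cre) and -0.28 (libraries labelled EC-K4KO), so CPM ratios with age are best read against those values. The model scales libraries by TMM (trimmed mean of M values), which moves the same ratios up by 0.29 and 0.37.

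**Figure D2:**
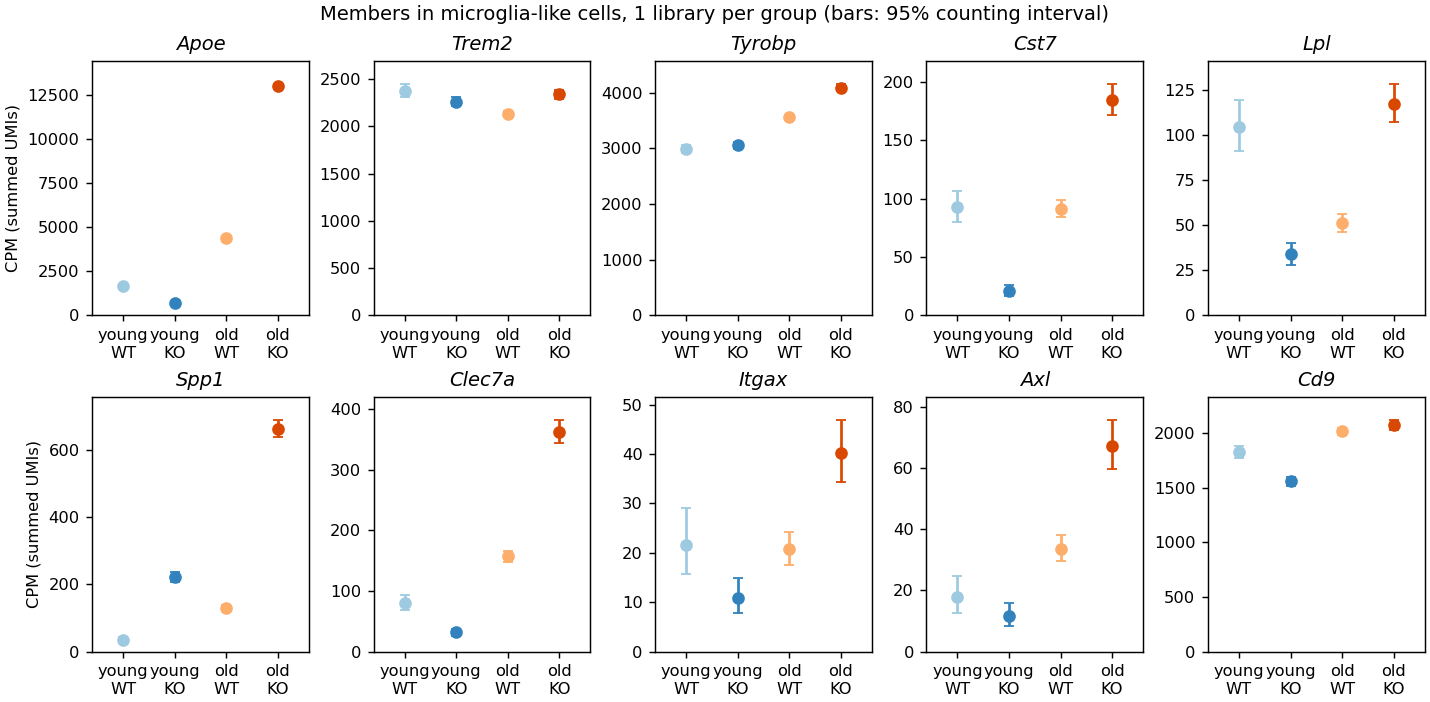
Level of each member in microglia-like cells (CPM of summed UMIs, linear axes from 0) in the 4 libraries, 1 point per library, WT standing for WT Cre and KO for the EC-K4KO label, with bars for the 95% counting interval. Apoe, Clec7a and Axl have their highest point in old mice with the EC-K4KO label and the next in old WT Cre, while Trem2 lies between 2133 and 2378 CPM in all 4.

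The signalling pair had the smallest changes with age beside Cd9 and Lpl. Trem2 lay at 2378, 2260, 2133 and 2340 CPM, and its log2 change with age was 0.27 (SE 0.12, edgeR adjusted p = 0.113). The young and old libraries overlapped in CPM. Tyrobp lay at 2991, 3052, 3563 and 4090 CPM, with both old libraries above both young ones. Its log2 change was 0.66 (SE 0.13, edgeR adjusted p = 0.00119). After each cell was thinned to 1000 UMIs, 83.5% to 87.8% of microglia-like cells held a Trem2 UMI and 92.5% to 95.2% a Tyrobp UMI, against at most 0.551% and 1.15% of endothelial-like cells. The receptor and its adaptor were thus detected in most microglia-like cells of every library.

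Apoe had the largest change among the members. Its level was 1691, 683, 4388 and 12990 CPM, and both old libraries lay above both young ones. The log2 change with age was 3.14 (SE 0.45, edgeR adjusted p = 9.94e-05). It was unevenly spread over cells: in thinned cells, the tenth of microglia-like cells with most Apoe held 80.5%, 88.0%, 86.6% and 69.5% of its UMIs. In the young libraries a single cell held 29.2% and 21.6% of all Apoe UMIs, and in the old ones 4.25% and 2.20%. Without that cell the levels were 1210, 539, 4211 and 12756 CPM. The share of thinned cells with an Apoe UMI was 26.9%, 14.8%, 30.5% and 44.5%. Smooth muscle-like cells, in which Apoe is low, gave 7.63%, 9.82%, 9.64% and 10.9% (median depths of 9110, 9343, 6414 and 5704.5 UMIs). The border macrophage markers, whose class held at least 42844 CPM of Apoe, stood in microglia-like cells at 5.29, 16.3, 18.7 and 46.0 CPM, and their part in the Apoe result was not tested.

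Lpl gave 104, 33.8, 51.0 and 117 CPM, the young WT Cre and the library labelled old EC-K4KO standing highest. Its log2 change with age was 0.66 (SE 0.39, edgeR adjusted p = 0.237), and young and old libraries overlapped. It passed without young WT Cre (1.64) or old WT Cre (1.20), and was -0.016 and -0.047 without the library labelled young and old EC-K4KO. A single cell held 51.6% and 72.6% of the Lpl UMIs of the young libraries. Without that cell Lpl lay at 51.1, 9.35, 44.5 and 102 CPM.

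Clec7a, Itgax and Axl, the receptors by which phagocytes bind particles and dying cells, rose with age. Clec7a lay at 79.4, 31.6, 157 and 362 CPM, the old libraries above the young, and its log2 change was 2.57 (SE 0.36, edgeR adjusted p = 7.79e-05). Axl lay at 17.8, 11.7, 33.6 and 67.2 CPM, again without overlap of the ages, and its log2 change was 2.17 (SE 0.26, edgeR adjusted p = 1.90e-05). Itgax, the least counted of these with 40 to 169 UMIs per library, lay at 21.7, 10.9, 20.7 and 40.3 CPM. Its ages overlapped in CPM, young WT Cre standing level with old WT Cre, and separated after TMM scaling. Its log2 change was 1.32 (SE 0.30, edgeR adjusted p = 0.00438).

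Cst7 lay at 92.9, 21.0, 91.3 and 184 CPM. Young and old libraries overlapped in CPM and not after TMM scaling, and the log2 change with age was 1.75 (SE 0.43, edgeR adjusted p = 0.0069). In young WT Cre, 5 cells held 79.8% of its UMIs. Without the 5 cells with most UMIs in each library, Cst7 lay at 19.6, 12.3, 67.4 and 160 CPM. Cd9 lay at 1829, 1561, 2020 and 2075 CPM, with the old libraries above the young and a log2 change of 0.60 (SE 0.12, edgeR adjusted p = 0.0018).

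Spp1 lay at 35.6, 221, 130.5 and 662 CPM. Ages overlapped, and the log2 change with age was 2.03 (SE 0.12, edgeR adjusted p = 1.58e-08). Its UMIs sat in few cells: 6, 13, 52 and 71 microglia-like cells held any (1.79%, 2.23%, 3.98% and 9.29%), and a single cell held 62.2%, 75.1%, 24.3% and 52.6% of them. Without that cell in each library the levels were 13.6, 55.4, 98.9 and 315 CPM, the ages no longer overlapped, and the log2 change with age was 2.96 (24.5% of all genes called). Without the 5 cells with most UMIs they were 0.496, 2.24, 41.6 and 183 CPM. Spp1 did not pass with age without young WT Cre (1.20) or without the library labelled old EC-K4KO (0.27). The SE of the model is taken from library sums and does not hold this spread among cells.

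In CPM, 5 members (Apoe, Tyrobp, Clec7a, Axl and Cd9) had both old libraries above both young ones, where 13.1% of all tested genes did and 59.1% had them below. After TMM scaling Cst7, Itgax and Trem2 joined them, making 8 members against 31.2% of all genes. DESeq2 in place of edgeR called 3 members with age (Tyrobp, Spp1 and Cd9; 6.03% of all genes). Without the library labelled young EC-K4KO the term alone could be fitted, on 3 libraries, and called 4 members (Apoe, Spp1, Clec7a and Axl) and 7.5% of all genes. Tyrobp (0.67), Cst7 (0.88), Itgax (0.77) and Cd9 (0.48) then did not pass.

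**Figure D3:**
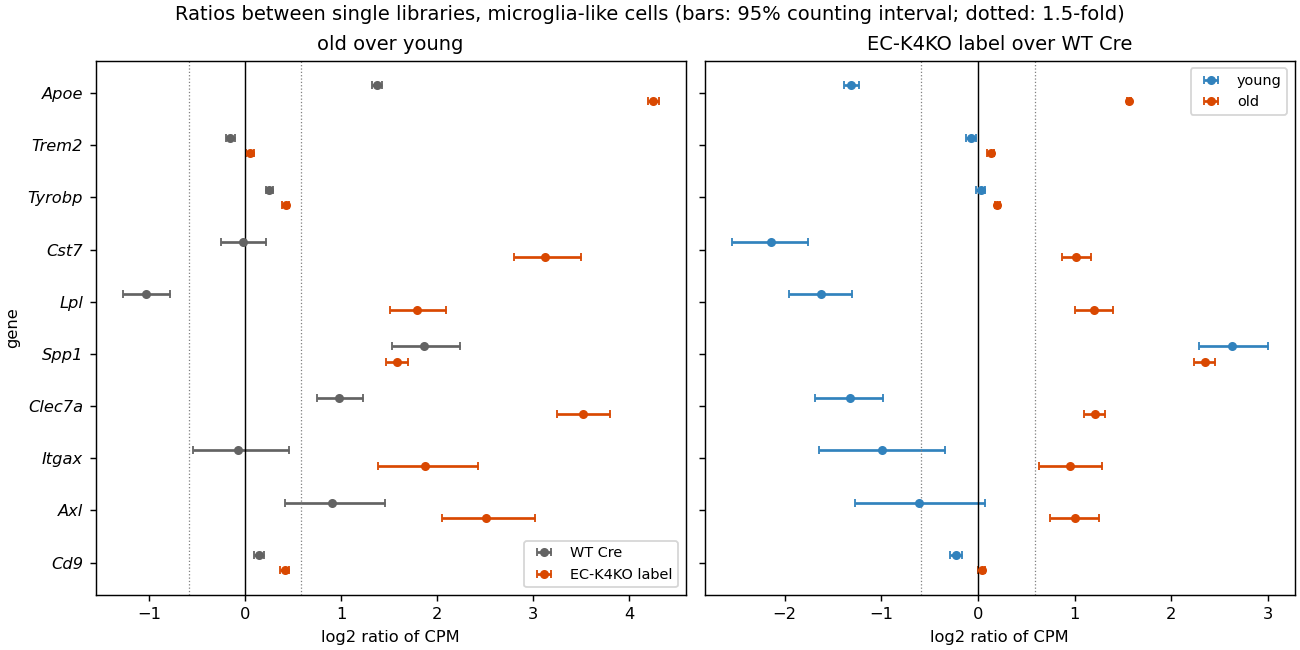
Log2 ratio of CPM between single libraries for each member in microglia-like cells, old over young for each genotype label on the left and EC-K4KO label over WT Cre at each age on the right, with bars for the 95% counting interval and dotted lines at 1.5-fold. On the right, Apoe, Cst7, Lpl and Clec7a lie left of the lower line in young mice and right of the upper line in old mice, while Spp1 lies to the right at both ages.

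Between single libraries, most ratios of old to young were larger on the side labelled EC-K4KO, Spp1 being the exception among the members counted as higher in both pairs. These ratios have no replicate, and a member was counted as different at 1.5-fold or more. From young to old WT Cre, 4 members were higher (Apoe 2.59-fold, Spp1 3.64-fold, Clec7a 1.97-fold, Axl 1.87-fold) where 4.26% of genes were, and Lpl was lower (log2 ratio -1.04, interval -1.28 to -0.79) where 17.6% were. Cst7 and Itgax had log2 ratios of -0.03 (interval -0.26 to 0.21) and -0.07 (interval -0.55 to 0.45). Between the libraries labelled EC-K4KO, 7 members were higher with age, against 5.85% of genes, and 0 were lower, against 24.4%. Apoe was 19.0-fold higher (log2 ratio 4.25, interval 4.19 to 4.31), Clec7a 11.4-fold, Cst7 8.74-fold, Axl 5.68-fold, Itgax 3.66-fold, Lpl 3.46-fold and Spp1 3.0-fold. Trem2, Tyrobp and Cd9 had log2 ratios of at most 0.42 in either pair.

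For 4 members the genotype label had opposite directions in young and in old mice. In young mice, Apoe (log2 ratio -1.31), Cst7 (-2.14), Lpl (-1.63) and Clec7a (-1.33) were lower in the library labelled EC-K4KO than in WT Cre, 4 of the 8 members above 20 CPM where 1.42% of genes were lower. Spp1 alone was higher (log2 ratio 2.62, interval 2.29 to 3.0), where 1.07% of genes were. In old mice the same 4 members were higher in the library labelled EC-K4KO (Apoe 1.57, Cst7 1.01, Lpl 1.20, Clec7a 1.21), as were Spp1 (2.34), Axl (1.00) and Itgax (0.96), 7 of 10 members where 1.38% of genes were. Of 5058 genes above the limit in both pairs, 9 (0.178%) were lower in the first and higher in the second, and 4 of these 9 were members. For old over young, 4 of 5444 genes (0.0735%) were lower in WT Cre and higher with the label, Lpl among them. The pairs with age and those with genotype label use the same 4 libraries. Without the 5 cells with most UMIs in each library, the young levels of WT Cre and of the library labelled EC-K4KO were 795 and 309 CPM for Apoe, 19.6 and 12.3 CPM for Cst7, 18.7 and 3.63 CPM for Lpl, and 30.3 and 16.6 CPM for Clec7a.

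Over both ages, the genotype term of the additive model called 50 of the 11380 genes (0.439%), and among the members Spp1 alone, with a log2 change of 2.47 (SE 0.12, edgeR adjusted p = 4.04e-09). The other 9 members ranged from -0.14 (Cst7) to 0.65 (Axl, SE 0.24, edgeR adjusted p = 0.572), and the median of all 10 was 0.14. That median was 1.14 without the library labelled young EC-K4KO and -1.23 without that labelled old EC-K4KO. These fits hold no age term and set 1 library with the label against WT Cre libraries of both ages. Their values thus mix the label with age. Without the cell with most Spp1 UMIs in each library the Spp1 change was 1.79 and still passed (0.397% of genes called). Without the cluster of microglia-like cells high in Ccl3 and Ccl4, described next, it was 0.44 and did not pass (0.67% of genes called). With single libraries left out, and so with label and age mixed, the Spp1 change was 1.72 without young WT Cre and 3.89 without old WT Cre. It was 3.08 without the library labelled young EC-K4KO and 1.12 without that labelled old EC-K4KO. Axl (1.47) and Clec7a (1.74) passed as higher without the library labelled young EC-K4KO (0.381% of genes called), and Clec7a (-2.14) and Cst7 (-2.31) as lower without that labelled old EC-K4KO (0.617% of genes called). With classes given by the marker score of each cell, 4 members passed as higher with the label (Apoe 0.65, Axl 0.74, Clec7a 0.47 and Spp1 2.03), where 0.929% of genes passed as higher and 1.59% in either direction.

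Microglia-like cells formed 3 clusters, built with the members left out. One of 1625 cells was led by homeostatic genes (P2ry13, P2ry12, Gpr34 and Tmem119). A second of 1263 cells had high Ccl3 and Ccl4, chemokines of activated and of dissociated microglia, with Il1a and Tnf. The last, of 99 cells, had cell cycle genes. With doublets kept, the microglia-like cluster with such genes held 20 cells (2, 5, 5 and 8 by library). The Ccl3/Ccl4-high cluster held 14.6%, 12.2%, 57.2% and 51.8% of the microglia-like cells, so that the old sums were drawn mostly from it and the young sums were not. Cst7 and Clec7a are among its 20 leading genes, and the levels of the members by cluster are given as a description with no test.

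**Figure D4:**
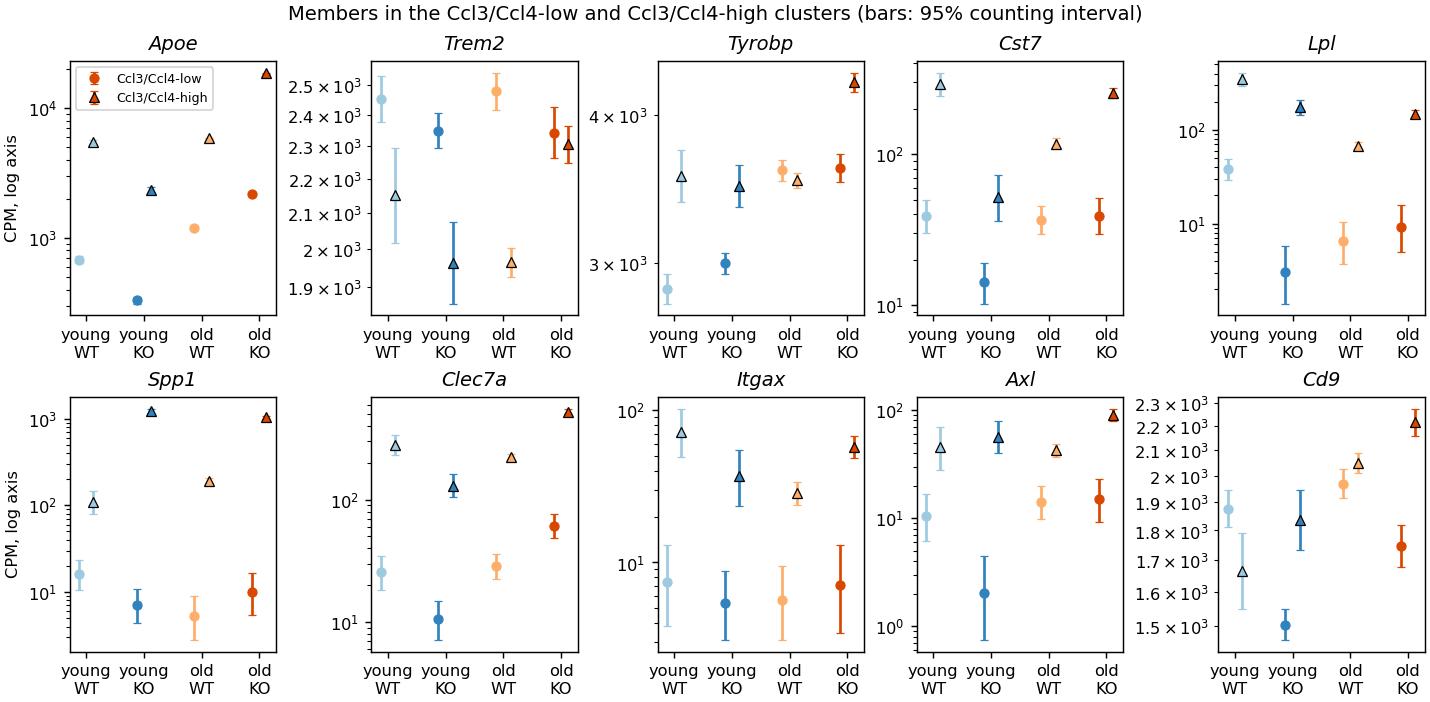
Level of each member (CPM, log axes that differ by gene) in the Ccl3/Ccl4-low (circles) and Ccl3/Ccl4-high (triangles) clusters of microglia-like cells in each library, WT standing for WT Cre and KO for the EC-K4KO label, with bars for the 95% counting interval. Apoe, Cst7, Lpl, Spp1, Clec7a, Itgax and Axl are higher in the Ccl3/Ccl4-high cluster in each library, while Trem2, Tyrobp and Cd9 differ little.

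Apoe, Clec7a and Spp1 had higher levels in the Ccl3/Ccl4-high than in the Ccl3/Ccl4-low cluster of each library. Apoe lay in the Ccl3/Ccl4-high cluster at 5479, 2337, 5839 and 18543 CPM, against 679, 331, 1189 and 2170 CPM in the Ccl3/Ccl4-low cluster. Clec7a lay at 281, 131, 222 and 526 CPM against 25.4, 10.5, 28.7 and 61.3 CPM. Spp1 lay in the Ccl3/Ccl4-low cluster at 16.1, 7.10, 5.26 and 9.98 CPM, against 109, 1211, 192 and 1038 CPM. Trem2, by contrast, lay at 2343 to 2478 CPM in the Ccl3/Ccl4-low and at 1963 to 2305 CPM in the Ccl3/Ccl4-high cluster. In the cycling cluster of the old libraries (38 and 50 cells, median depths of only 2019.5 and 1862.5 UMIs) Apoe reached 10461 and 16656 CPM. Lpl (260.3 and 509 CPM), Cst7 (148 and 338 CPM) and Axl (63.3 and 137 CPM) were higher there than in the Ccl3/Ccl4-high cluster of the same libraries (67.5 and 149 CPM, 117 and 252 CPM and 42.6 and 90.5 CPM), whereas Clec7a was lower (176 and 332 CPM).

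Without the Ccl3/Ccl4-high cluster, which leaves the Ccl3/Ccl4-low and cycling clusters together, 8 members rose with age (13.1% of all genes called), Apoe by 2.66, Axl by 2.31, Clec7a by 2.20, Spp1 by 1.51, Lpl by 1.44, Cst7 by 1.42, Tyrobp by 0.58 and Cd9 by 0.41 on the log2 scale, while Itgax at 0.68 did not pass. The cycling cluster had 5, 6, 38 and 50 cells and held 29 and 46 of the old Spp1 UMIs, against 13 and 14 in the Ccl3/Ccl4-low cluster, and 37 and 89 of the old Lpl UMIs, against 16 and 13. In the Ccl3/Ccl4-low cluster itself no old library lay above young WT Cre for Spp1, at the levels given above, or for Lpl, at 38.4, 3.04, 6.47 and 9.26 CPM. Cst7 (39.0, 14.2, 36.8 and 39.2 CPM) and Cd9 (1877, 1503, 1969 and 1747 CPM) overlapped between the ages there. Apoe, Tyrobp, Axl and Clec7a had both old libraries above both young ones, Clec7a closely in WT Cre (25.4 and 28.7 CPM). The cycling cluster held 1487 and 2910 of the old Apoe UMIs, against 2940 and 3045 in the Ccl3/Ccl4-low cluster. The Ccl3/Ccl4-high cluster alone, a setting chosen after its share had been seen, called 3 members (2.36% of all genes): Apoe (1.67) and Clec7a (0.94) rose and Lpl fell by 1.18 (SE 0.24, edgeR adjusted p = 0.00117). Cst7 (0.38), Axl (0.50), Spp1 (0.32) and Itgax (-0.21) did not pass there. In the same cluster the genotype label called Spp1 (2.89) and Axl (0.93), with 0.505% of all genes. The young part of this cluster holds 49 and 71 cells.

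Within clusters, the ratios between single libraries differed in part from those of the whole class. In the Ccl3/Ccl4-high cluster, Apoe of old over young WT Cre was 1.07-fold (2.59-fold in the class) and Clec7a 0.786-fold (1.97-fold). Between the libraries labelled EC-K4KO the ratio there was 0.848-fold for Lpl (3.46-fold in the class) and 0.857-fold for Spp1, while Apoe was 7.93-fold and Clec7a 4.0-fold. In the Ccl3/Ccl4-high cluster, 7 members were at least 1.5-fold higher in the library labelled old EC-K4KO than in old WT Cre, where 2.38% of genes were. In young mice 5 members were lower there with the label (11.5% of genes) and 1 was higher (8.2%). From young to old, 5 were higher between the libraries labelled EC-K4KO (5.51%), while between the WT Cre libraries 1 was higher (4.95%) and 3 were lower (15.8%).

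The Ccl3/Ccl4-low cluster had fewer members above the limit of 20 CPM, 6 or 7 in each pair. With the label, 2 were higher in old mice (2.36% of genes) and 3 lower in young mice (1.58%). From young to old, 3 were higher between the libraries labelled EC-K4KO (4.05%), and between the WT Cre libraries 1 was higher (2.04%) and 1 lower (9.29%).

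Detection of the inducible members in single cells was compared at equal depth. Of the 6 members known as inducible in microglia (Cst7, Lpl, Spp1, Clec7a, Itgax and Axl), at least 1 was detected in 5.37%, 4.63%, 13.5% and 25.4% of thinned microglia-like cells. At least 2 were detected in 1.49%, 0.686%, 3.98% and 10.1%, where the intervals of young (0.486% to 3.45%) and old WT Cre (2.99% to 5.19%) overlapped, and at least 3 in 0.597%, 0.172%, 1.23% and 3.40%. Endothelial-like cells gave 0.254%, 0.984%, 0.368% and 1.94% for at least 1 (median depths of 6319.5, 9910, 4699.5 and 3774 UMIs), below the microglia-like share in each library. Lpl, 1 of the 6, ranged from 1.91 to 14.3 CPM in endothelial-like cells, so their shares are not a fixed floor. For at least 1, the intervals of the young libraries, 3.22% to 8.36% and 3.07% to 6.67%, overlapped each other and neither overlapped those of the old (11.7% to 15.5% and 22.3% to 28.6%). Within clusters the share with at least 2 was 6.12%, 4.23%, 6.02% and 15.7% in the Ccl3/Ccl4-high and 0.712%, 0.198%, 0.577% and 1.26% in the Ccl3/Ccl4-low cluster, and the intervals of young and old WT Cre overlapped in both. Those of the libraries labelled EC-K4KO did not overlap in the Ccl3/Ccl4-high cluster (0.880% to 11.9% and 12.2% to 19.6%), and did in the Ccl3/Ccl4-low cluster. In the cycling cluster of the old libraries the share was 10.5% and 22%. Without thinning, the shares for at least 1 were 20.6%, 16.5%, 31.6% and 43.3%. Border macrophage-like cells gave 23.3%, 23.7%, 36.7% and 22.2% with at least 1 of the 6.

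**Figure D5:**
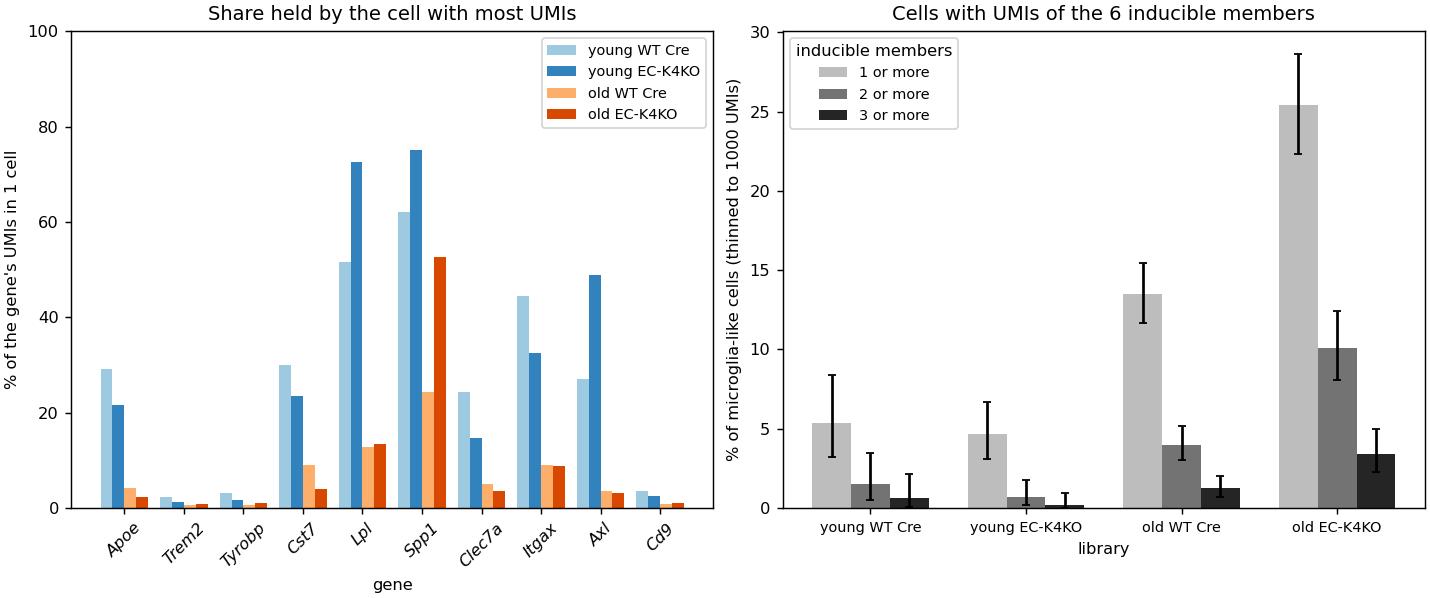
Left, percent of each member's UMIs in microglia-like cells that 1 cell held, by library (bars, axis from 0 to 100%). Right, percent of microglia-like cells, thinned to 1000 UMIs, with UMIs of 1, 2 or 3 or more of the 6 inducible members, with bars for the 95% exact binomial interval. A single cell holds 24.3% to 75.1% of Spp1 but at most 3.06% of Tyrobp, and cells with 1 or more inducible members make up 4.63% to 25.4%.

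Of 20 other disease-associated microglia genes, 15 rose with age and 0 fell (median log2 change 1.05), where 14.9% of all genes rose and 9.72% fell in the same fit. Igf1, a growth factor, rose by 3.62 from 2.89 and 1.09 CPM in the young libraries to 6.42 and 25.7 CPM in the old. Fabp5, a fatty acid carrier, lay at 15.4, 32.1, 62.5 and 152 CPM (log2 change 2.50), Lilrb4a, an inhibitory receptor, at 5.29, 3.27, 9.37 and 22.6 CPM (2.35), and Csf1, a growth factor of macrophages, at 46.2, 47.1, 119 and 127 CPM (1.73). Of 12 homeostatic microglia genes, 11 fell and 0 rose (median -0.59). The purinergic receptor P2ry12 lay at 2322, 2587, 1215 and 1060 CPM (log2 change -0.78), and P2ry13 fell by 0.90, Gpr34 by 0.68 and the fractalkine receptor Cx3cr1 by 0.64. These 2 lists hold genes picked elsewhere as up or down in this state. The homeostatic genes named here are also among the markers used to name microglia-like cells, so their levels are not independent of that choice. Without the library labelled young EC-K4KO, 8 of the 20 rose and 4 of the 12 fell, where 5.58% of all genes rose and 1.92% fell. In the Ccl3/Ccl4-high cluster alone, 4 of the 20 rose and 1 fell, and 0 of the 12 fell, where 1.21% of all genes rose and 1.15% fell.

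Counts in the following lists are read against the same shares. Of 9 genes of ITAM signalling (the kinase and adaptor steps after TYROBP), 2 rose and 2 fell (median -0.04). With each library left out the median was -0.14 to 0.01. With DESeq2 1 rose and 0 fell, where 5.11% of all genes rose and 0.914% fell. Spi1, which encodes PU.1, rose by 0.63, and the adaptor Hcst by 0.45. Card9, an adaptor downstream of dectin-1, changed by -1.03 (23.6, 18.0, 9.90 and 6.43 CPM) and the lipid phosphatase Inpp5d by -0.35.

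Of 20 ligands, receptors and partners, 15 could be tested, 2 rose and 3 fell (median 0.05), the share of the tested that rose being close to that of all genes. With each library left out, the median of these was -0.02 to 0.11. Cd44, a receptor of osteopontin, rose by 1.80, at 3.85, 5.45, 7.76 and 17.4 CPM. Mertk, the relative of Axl, lay at 295, 309, 155 and 151 CPM and changed by -0.66. Pros1, a ligand of this receptor family, changed by -0.48 and the lipoprotein receptor Lrp1 by -0.42. Gas6, the ligand of Axl, was highest in border macrophage-like cells (497 to 769 CPM, against 75.3 to 126 CPM in microglia-like cells). Gpihbp1, the anchor of lipoprotein lipase on vessel walls, had 0 UMIs in the microglia-like cells of each library.

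Of 10 genes of lipid export and storage, 9 could be tested, 3 rose and 1 fell (median 0.26). With each library left out the median ranged from -0.0071 (without the library labelled old EC-K4KO) to 0.52 (without old WT Cre). Nceh1, a cholesterol ester hydrolase, rose by 1.46, the lysosomal cholesterol carrier Npc2 by 0.87 and the lipid droplet coat gene Plin2 by 0.87, while the sterol exporter Abcg1 changed by -0.58. Among the genes of these lists, the genotype label called Gpnmb, a lysosomal glycoprotein (log2 change 1.72, at 0.481, 13.9, 9.50 and 23.6 CPM), Fabp5 (1.25) and Plin2 (0.81). None of the genes of both lists passed with the label without the cell with most Spp1 UMIs in each library, without the Ccl3/Ccl4-high cluster, with the term alone, or without young WT Cre, old WT Cre or the library labelled old EC-K4KO.

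Dissociation and immediate early genes were followed as a sign of handling. Of 12 such genes, 5 rose and 2 fell (median 0.22), beside 14.9% and 9.72% of all genes. With each library left out the median was 0.11 to 0.33. In the Ccl3/Ccl4-high cluster alone 3 rose and 4 fell (median -0.22), where only 1.21% of all genes rose and 1.15% fell. Ccl3 lay at 2206, 1835, 7561 and 6447 CPM (log2 change 2.12), Ccl4 changed by 1.80, Nfkbiz by 1.13, Atf3 by 0.89 and Ier2 by 0.47, whereas the heat shock gene Hspa1b changed by -0.70 and Jun by -0.49. Their part in the change of the members was not tested.

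In border macrophage-like cells no member passed. There 5 members could be tested with age, and 0 passed, where 5.78% of 4153 genes did with edgeR. At an unadjusted p under 0.05 edgeR gave 1 and DESeq2 0, where 712 and 137 of the 4153 genes reached it. Apoe changed by -0.05 (SE 0.12). The largest change was that of Axl, 0.97 (SE 0.33, edgeR adjusted p = 0.0507), at 92.1, 74.4, 135 and 163 CPM, on 24 to 38 UMIs. It passed with doublets kept (1.13) or with other size factors (0.99). Spp1, at 11.5, 12.4, 156 and 0 CPM, did not pass the filter on low counts. In the fits without another library it did so through old WT Cre alone, so nothing is read from them. With the genotype label 0 passed (0.53% of genes), again with 1 and 0 at an unadjusted p under 0.05 (237 and 16 of all genes). Each library held only 27 to 76 of these cells, and a p that misses the threshold here does not show equal levels.

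In endothelial-like cells, the class in which Klf4 was to be deleted, 8 members could be tested and 5 rose with age, where 16.5% of 14968 genes passed (10.3% higher). Cd9 lay there at 179, 195, 347 and 333 CPM, both old libraries above both young, with a log2 change of 1.01 (SE 0.08, edgeR adjusted p = 0.0006). It passed under each setting run, and it was the only member left past the threshold when age was fitted alone or any 1 library was left out. Lpl lay at 1.91, 5.05, 4.92 and 14.3 CPM. It changed by 1.59 with age (SE 0.18, edgeR adjusted p = 0.00203) and by 1.5 with the genotype label (SE 0.18, edgeR adjusted p = 0.0168), where 1.04% of genes passed. Lpl did not pass with the genotype label when any 1 library was left out.

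Trem2, Tyrobp and Clec7a also passed with age in endothelial-like cells, at levels of at most 3.22, 10.9 and 0.853 CPM (Clec7a on 3 to 13 UMIs per library). The 9 microglia markers summed to 52.8, 54.9, 54.3 and 56.4 CPM in these cells and the 7 neutrophil markers to 7.43, 15.4, 19.1 and 176 CPM. How much of these low levels is free RNA was not tested. Apoe lay at 1217, 969, 1206 and 1365 CPM and changed by 0.39 (SE 0.12, edgeR adjusted p = 0.0741).

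The other classes tested were astrocyte-like and smooth muscle-like cells. In astrocyte-like cells, the main source of Apoe in young WT Cre, 3 members could be tested and 0 passed with age. With edgeR 0.884% of 9507 genes did. At an unadjusted p under 0.05 edgeR gave 1 member and 743 of all genes, and DESeq2 gave 0 and 69. Apoe lay there at 19591, 17218, 22386 and 21576 CPM and changed by 0.25 (SE 0.26). In smooth muscle-like cells 1 of 5 passed with age, where 6.7% of 10830 genes did: Apoe, at 130, 99.8, 165 and 138 CPM, with a log2 change of 0.45. It did not pass without the library labelled young EC-K4KO or without old WT Cre. With the genotype label 0 members passed in either class (0.252% and 0.452% of genes). At an unadjusted p under 0.05 edgeR gave 0 and 1 (592 and 481 of all genes) and DESeq2 0 and 0 (18 and 39).

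For each member, the gene with the most similar levels across the 12 class means was looked up. Likeness was Pearson r of log2(CPM + 1) over classes that share libraries, among genes outside all lists and markers, and is a description. Closest were C1qa to Trem2 (0.98) and Fcer1g to Tyrobp (0.99), then Nfam1 to Clec7a (0.98). Spp1 was closest to the matrix gene Postn (0.94), Itgax to Gm2629 (0.93), Cst7 to Klk8 (0.93), Apoe to Dcxr (0.90), Lpl to Scarf2 (0.89) and Axl to Nupr1 (0.88). Cd9, which is present in several unrelated classes, had no close match, Nfix at 0.66 being the nearest.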

How the data were processed

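Brain cells of 4 mouse groups, 1 library each, were profiled by droplet single-cell RNA sequencing. The deposited counts are whole UMIs per gene and cell barcode, and the authors made them with Cell Ranger 6.0.2 (matrix header) on the mm10/GRCm38 genome, their processing notes also naming Seurat. Barcodes were kept from 500 genes and 1000 UMIs upward if no more than 10% of UMIs were mitochondrial. Doublets were removed by Scrublet score at 0.8% per 1000 cells, since its automatic threshold marked few. Cells were clustered without the members (Scanpy 1.11.5, Leiden 0.10.2, 2000 variable genes, 30 components, 20 neighbours) and classes named "-like" from fixed markers. The naming rule (a marker of the class among the 20 leading genes, or none of another class) was set after clusters were seen. UMIs were summed per class and library, and microglia, border macrophage, endothelial, astrocyte and smooth muscle-like cells, each with at least 20 cells in each library, were tested in edgeR 4.0.16 (R 4.3.3, quasi-likelihood, TMM, filterByExpr, Benjamini-Hochberg over all genes, threshold 0.05) with age and genotype label as additive terms. SE is |log2 change| divided by the square root of F. With 1 library per group there is no replicate. The 1 residual degree of freedom is what both terms leave over the 4 libraries, and any interaction of age and label falls into it. edgeR also draws the spread of each gene toward a trend over all genes, so p-values rest in part on that shared spread. Nothing says whether this spread is biological or technical. A self-test used counts simulated for age in microglia-like cells (50 genes per fold). It called 12 genes changed 1.5-fold, 43 changed 2-fold, 50 changed 4-fold and 33 changed 0.5-fold, and 5 of 11114 unchanged genes. The simulated counts had the same fixed spread for every gene, no interaction of age and label and no single cells with most of the UMIs. The self-test therefore gives no rate of false calls for the real libraries.

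Ratios of single libraries were taken where the 2 CPM values averaged 20 or more, and counted as different at 1.5-fold (0.5 UMIs added). Intervals of levels are exact Poisson, of ratios exact conditional binomial and of shares Clopper-Pearson, and a count of 0 allows up to 3 UMIs. They cover counting error only. Shares of cells were taken after thinning to 1000 UMIs. Total counts were 46794601, 88812581, 51945411 and 30655769 UMIs over 5324, 8358, 7298 and 5442 barcodes. The members and lists were chosen with earlier results of these data known. Named genes are the 10 members, and from each list those with the largest changes that passed. Some list genes are counted but not reported here by name. Alternatives were DESeq2 1.42.0, DESeq2 size factors, no low-count filter, 1 term alone, each library left out, a 5% mitochondrial limit, doublets kept, and classes by marker score of each cell. Fits without or on the Ccl3/Ccl4-high cluster alone and without the cell with most Spp1 UMIs were added; the cluster-alone and Spp1 fits were chosen after seeing the data.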

Additional observations from a re-analysis of the deposited data

Results flagged for a closer look

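For 4 members in microglia-like cells, the single-library ratio of the library labelled EC-K4KO over WT Cre pointed one way in young mice and the other way in old mice. On the log2 scale it went from -1.31 to 1.57 for Apoe (a difference of 2.87), from -2.14 to 1.01 for Cst7 (3.16), from -1.63 to 1.20 for Lpl (2.83) and from -1.33 to 1.21 for Clec7a (2.53). Lpl also had opposite ratios of old over young by genotype label, -1.04 in WT Cre and 1.79 in the libraries labelled EC-K4KO (a difference of 2.83). Of the genes above the level limit, 9 of 5058 (0.178%) turned from lower to higher with the label as these 4 did, and 4 of 5444 (0.0735%) turned with age as Lpl did. These differences were not tested, because each combination of age and label holds 1 library and the interaction leaves no residual degree of freedom. In the young libraries 5 cells held 54.6% and 55.6% of the Apoe UMIs and 82.9% and 89.5% of the Lpl UMIs, and their part in the opposite ratios was not tested.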

How the results depend on the processing

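No paired analysis was possible because each group holds 1 library and all carry the replicate number 1. In microglia-like cells, where 8 members passed with age, 3 did with DESeq2, 4 to 10 when each library was left out (4 without the library labelled young EC-K4KO) and 3 in the Ccl3/Ccl4-high cluster alone. With the genotype label 1 passed (0.439% of all genes), 2 with no filter on low counts (0.652%) and 0 with the term alone (0%). Classes by marker score of each cell gave 4 (1.59%). Without the Ccl3/Ccl4-high cluster 0 passed (0.67%), and in it alone 2 did (0.505%). When each library was left out, the members' median with the label was -1.23 to 1.14, in fits that mix label and age. The log2 change of Lpl with age ranged from -0.047 to 1.64 when each library was left out (negative without either library labelled EC-K4KO) and turned to -1.18 in the Ccl3/Ccl4-high cluster alone, where Itgax turned to -0.21. Of the 20 other disease-associated genes 8 to 16 rose when each library was left out (8 without the library labelled young EC-K4KO) and 4 rose and 1 fell in the Ccl3/Ccl4-high cluster alone, and of the 12 homeostatic genes 4 and 0 fell in these settings. Without thinning, cells with 1 or more inducible members made up 20.6%, 16.5%, 31.6% and 43.3%. In border macrophage-like cells 0 passed with age (5.78% of genes). There age gave 1 with other size factors (5.75%), with no low-count filter (0.571%) and with doublets kept (6.53%). It gave 3 with marker score classes (2 higher and 1 lower of 8 tested, where 3.13% of genes passed). The label gave 0 in the main fit (0.53%), 1 with no filter (0.107%) and 2 with marker score classes (0.764%). In endothelial-like cells the term alone gave 1 with age (5.59% of genes, from 5 at 16.5%) and 0 with the label (0%, from 1 at 1.04%). With libraries left out the members' median was 0.68 to 1.12 with age and -0.26 to 0.86 with the label. In astrocyte-like cells 0 passed with age (0.884% of genes) and 0 with the label (0.252%), and the label gave 1 with marker score classes (0.597%). With libraries left out the members' median with age was 0.21 to 0.43. In smooth muscle-like cells 1 passed with age (6.7% of genes). There DESeq2 (0.794%), no filter (2.62%), the term alone (3.51%), a 5% mitochondrial limit (3.88%) and kept doublets (3.79%) gave 0. With libraries left out the members' median was 0.0038 to 0.33. Among the alternatives for single members' log2 changes, 165 kept direction and call, 61 lost and 11 gained the call, and 4 changed sign. These alternatives cover all members with age in microglia-like cells, and Spp1 alone with the label there. Of other classes they cover the members that passed, and Axl with age in border macrophage-like cells. Sign changes of other members with the label are thus not among them. The causes were not tested, beyond fits that hold fewer libraries or cells. Over all genes in microglia-like cells, DESeq2 called 686 against 2807 with age and 15 against 50 with the label. In each fit leaving out a library, the tested term alone was fitted and the lone library was assumed to vary like the others. Age and label are unbalanced in these fits, so a change with one of them holds part of the other. Depth limits Itgax and Axl most, with 40 and 37 UMIs in their lowest library.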
